A study of Mus musculus with 20 samples.

Results

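The genes described here are 10 transcription factors that direct the myeloid lineages of the blood: Spi1, Cebpa, Cebpb, Cebpd, Cebpe, Gfi1, Irf8, Klf4, Runx1 and Gata2. They were taken by gene symbol from the deposited bone marrow and kidney count tables, which hold the same 55486 genes, and each symbol was found once in both. RNA was sequenced from bone marrow and kidney of C57BL/6 mice, with 5 libraries in each of the 4 combinations of tissue and treatment. The mice, 10 weeks old, received oxaliplatin at 10 mg/kg in 5% dextrose or the 5% dextrose vehicle alone, by intraperitoneal injection for 8 weeks. Oxaliplatin is a platinum drug used against colorectal cancer that forms adducts on DNA. Marrow was spun out of the long bones of the leg, 6 days after dosing ended. The methods speak of male and female mice without giving the sex of each, while Y-linked genes (Ddx3y, Uty, Kdm5d and Eif2s3y) averaged a log2 CPM of 4.26 to 5.42 in the 20 libraries, so none lacked them. The sources name no other treatment and no engineered allele, and the numbers 1 to 5 name the libraries within each group.

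Myeloid cells arise when progenitors accumulate particular combinations of DNA-binding factors. Spi1 (PU.1) opens myeloid and B cell enhancers, Runx1 and Gata2 act earliest, in stem and progenitor cells, and Cebpa takes progenitors into the granulocyte and monocyte branch. Further on, Gfi1 and Cebpe drive neutrophil maturation and granule gene expression, whereas Irf8 and Klf4 drive monocytes and, in the case of Irf8, dendritic cells. Cebpb sustains granulocyte production under stress, and Cebpd is induced by inflammatory signals in many tissues. Several of these factors also work outside the blood: Cebpa and Cebpb take part in fat cell differentiation, and Gata2 and Klf4 are expressed in endothelium and epithelium.

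The 250 bases directly upstream of the start of Cebpa and of Irf8 are shown first, because these were the 2 factors whose marrow RNA passed the test. They are RefSeq sequences of GRCm38.p6, written 5′ to 3′ on the plus strand, which both genes use, from chr7:35119043-35119292 and chr8:120736108-120736357. Capitals mark exact matches, on either strand, to the TATA box (TATAAA), the CCAAT box (CCAAT), a C/EBP palindrome (TTGCNNAA), a GATA site (AGATAA), an ETS core (GAGGAA) and a STAT palindrome (TTCNNNGAA), where N is any base.
Cebpa: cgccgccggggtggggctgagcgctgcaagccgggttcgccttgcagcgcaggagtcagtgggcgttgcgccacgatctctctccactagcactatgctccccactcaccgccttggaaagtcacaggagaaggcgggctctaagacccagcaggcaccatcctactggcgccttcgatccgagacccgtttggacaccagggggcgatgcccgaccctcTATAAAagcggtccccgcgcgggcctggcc
Irf8: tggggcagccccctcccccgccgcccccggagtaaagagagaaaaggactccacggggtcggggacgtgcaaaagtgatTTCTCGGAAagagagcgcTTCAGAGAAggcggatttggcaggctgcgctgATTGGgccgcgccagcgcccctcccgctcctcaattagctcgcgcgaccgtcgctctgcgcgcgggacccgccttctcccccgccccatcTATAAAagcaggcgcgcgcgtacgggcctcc

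Both windows held a TATA box, from 30 to 25 bases before the start in Cebpa and from 31 to 26 in Irf8, a match found in 12.4% of the 32851 mouse promoter windows of this length. Irf8 also held a CCAAT box (33.8% of all windows) and 2 STAT palindromes (7.02%). The palindrome of the C/EBP proteins (9.56%), the GATA site (9.99%) and the ETS core (23.3%) had no exact match in either window. Irf8 has another RefSeq window, not shown (chr8:120738389-120738638), which held no match to any of these motifs, the TATA box included. RefSeq windows were present for 7 of the 10 factors, and no protein binding was measured, so these letters describe the sequence only.

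Total counts per library ran from 30660153 to 41140527 in marrow and from 24393007 to 30925430 in kidney, and values are given as CPM, counts scaled to library size by TMM. The tissues matched their labels: in vehicle mice the neutrophil granule genes Mpo, Elane and Ltf averaged 1690, 673 and 4060 CPM in marrow and the hemoglobin gene Hba-a1 averaged 13500 CPM, while the nephron genes Slc34a1, Umod, Aqp2 and Nphs1 averaged 8520, 2140, 312 and 23.7 CPM in kidney. Marrow libraries 3 and 4 of the oxaliplatin group stood apart in their neutrophil genes. The summed CPM of 6 secondary granule genes was 4210 and 6590 in these mice, against 14100 to 19100 in the other oxaliplatin-treated mice and 12800 to 15700 with vehicle. The log2 fold changes of the factors are therefore also given without them where they matter. Calls, sums and medians of the marker gene lists include them.

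In bone marrow all 10 factors had enough counts to be tested. Cebpa was upregulated, Irf8 was downregulated, and the other 8 did not pass the test, which required more than 1.5-fold change together with an edgeR adjusted p below 0.05. The calls amount to 2 of 10 factors, beside 23.3% of the 22363 genes tested in marrow (11.6% higher and 11.8% lower). The median log2 fold change over the 10 factors was 0.02, against -0.0378 over all genes tested. Marrow RNA was measured in bulk, so fewer cells of a type and less RNA per cell cannot be told apart, and this holds for every value below.

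**Figure D1:**
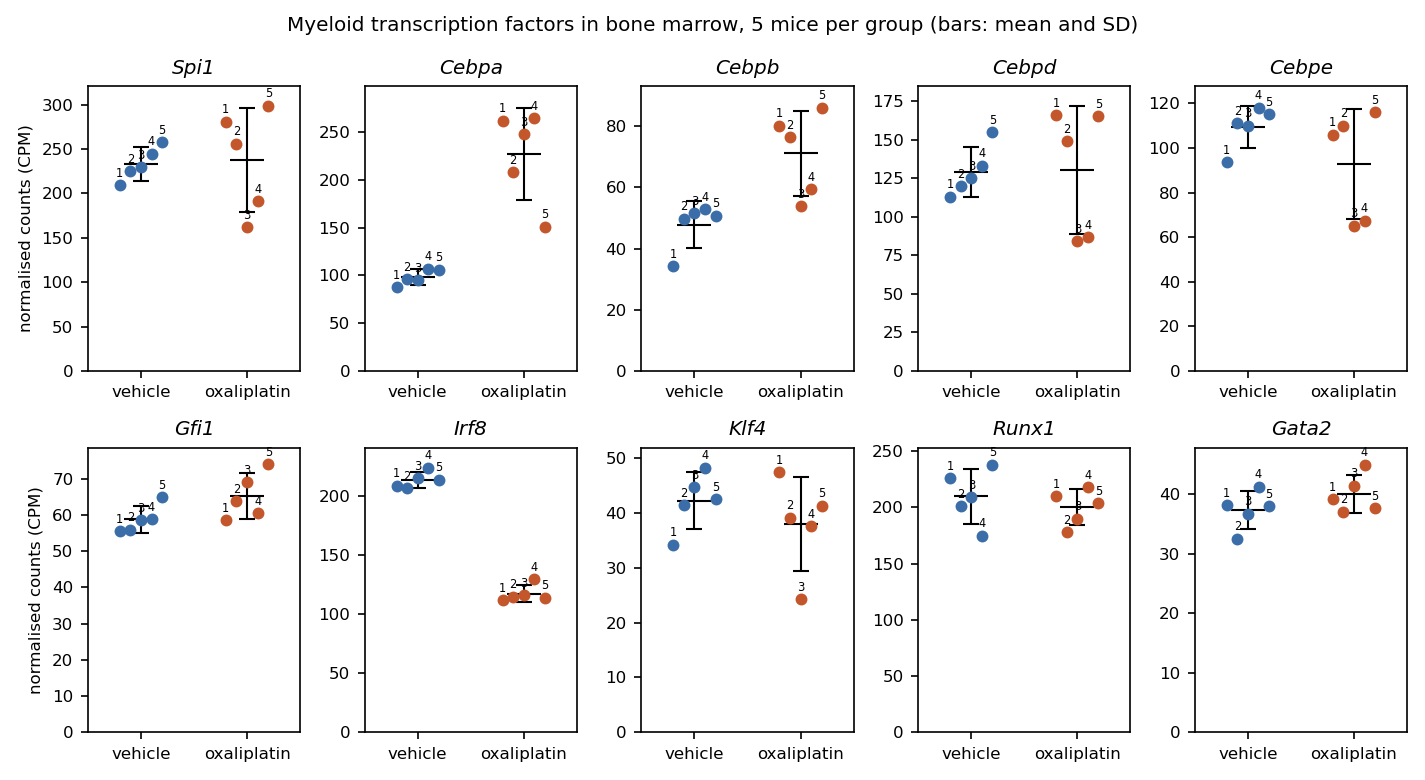
TMM-scaled CPM (vertical axes, each starting at 0) of the 10 factors in the 5 vehicle and 5 oxaliplatin marrow libraries, numbered within their group, with bars for the mean and SD. Cebpa lay between 151 and 265 CPM after oxaliplatin against 88 to 107 CPM with vehicle, Irf8 fell from 207 to 224 CPM to between 112 and 130 CPM, and Spi1, Cebpd and Cebpe were low in oxaliplatin mice 3 and 4.

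Cebpa (ENSMUSG00000034957, GRCm38 chr7:35119293-35121928, plus strand, a single exon) encodes C/EBPα, the factor without which granulocytes do not form. It measured 88, 96, 95.3, 107 and 106 CPM in vehicle mice 1 to 5 and 262, 208, 248, 265 and 151 CPM in oxaliplatin mice 1 to 5. All 5 oxaliplatin values lay above all 5 vehicle values, with mouse 5 the lowest. The means were 98.3 ± 7.8 and 227 ± 48.3 CPM (SD, n = 5 mice), which is 2.31-fold, or 1.21 on the log2 scale (standard error 0.14, edgeR quasi-likelihood adjusted p = 3.16e-05). Without oxaliplatin mice 3 and 4 it was 1.07. An antisense gene, Gm45091, shares 51 exon bases with Cebpa and had 4 to 35 counts per marrow library.

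The oxaliplatin mice also differed in fat cell genes, some of which depend on C/EBPα in adipocytes. All 10 adipocyte markers measured (Adipoq, Plin1, Cidec, Lep, Cfd, Fabp4, Car3, Retn, Lpl and Pparg) were upregulated in marrow, with a median log2 fold change of 5.12 (Lep, at 0.0412 CPM with vehicle, passed the count filter through the oxaliplatin group). Their summed level was 189 to 291 CPM with vehicle, and 4340, 2450, 4210, 4530 and 1120 CPM in oxaliplatin mice 1 to 5. The 5 oxaliplatin mice fell in the same order for Cebpa as for this sum, mouse 4 first and mouse 5 last. With each group's mean subtracted, log2 Cebpa correlated with the mean log2 level of the adipocyte genes at r = 0.859 (rho = 0.83) over 10 libraries, and at 0.637 without the 2 libraries farthest from the median of the adipocyte genes. Mast cell, basophil and eosinophil genes gave 0.714, T and NK cell genes 0.332 and macrophage genes 0.00622 over 10 libraries. Without oxaliplatin mice 3 and 4 they gave 0.919, 0.869 and 0.868, beside 0.81 for the adipocyte genes. The correlation was thus not particular to fat cell genes. In the granulocyte series the primary granule genes, which C/EBPα activates, gave no calls among 5. Mpo was at -0.07 on the log2 scale (edgeR adjusted p = 0.751), while Ms4a3 (0.54, 0.00231) and Ctsg (0.51, 0.0247) had separate groups, higher with oxaliplatin, and an adjusted p below 0.05 but were under the fold threshold. The part of fat cell RNA in the Cebpa difference was not tested. In mouse 5, where the adipocyte sum was lowest, Cebpa was at 151 CPM and the adipocyte sum at 1120 CPM, both above the highest vehicle values of 107 and 291 CPM.

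Irf8 (ENSMUSG00000041515, GRCm38 chr8:120736358-120756694, plus strand) encodes the interferon regulatory factor required for monocytes and dendritic cells, and it is also expressed in B cells. It measured 209, 207, 215, 224 and 214 CPM with vehicle and 112, 115, 116, 130 and 114 CPM with oxaliplatin. No value of either group reached the other group, and the spread was narrow in both (coefficients of variation of 3.08% and 6.23%). The log2 fold change was -0.86 (standard error 0.077, edgeR adjusted p = 3.28e-06), a 1.82-fold reduction, and -0.91 without oxaliplatin mice 3 and 4.

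The cell types that use Irf8 did not move alike. Of 9 B cell genes, 7 were downregulated and none was called higher, with a median log2 fold change of -2.24 and a summed level of 339 to 612 CPM with vehicle and 92.8 to 156 CPM with oxaliplatin. The largest reductions among them were those of Rag1 (-3.40, standard error 1.1, edgeR adjusted p = 0.0374) and Pax5 (-2.82, standard error 0.22, adjusted p = 1.93e-06). Of 7 dendritic cell genes, 4 were downregulated: Siglech, a marker of plasmacytoid dendritic cells (log2 fold change -2.82), Ccr9 (-1.89), Cd209a (-1.35) and Clec9a (-0.75), a marker of the conventional type. The summed level of all 7 was 176 to 188 CPM with vehicle and 118 to 169 CPM with oxaliplatin. Much of that sum was Tcf4, which was not called and averaged 97.4 CPM with vehicle and 93.9 CPM with oxaliplatin. Of 7 monocyte genes, F13a1 (1.18) and Csf1r (0.60) were upregulated, Cx3cr1 (-0.70) was downregulated, and the other 4 did not pass, with a summed level of 1450 to 1790 and 954 to 2910 CPM. Rag1 and Vpreb1 were at 0 in at least 1 oxaliplatin marrow library and reached 14.6 and 7.95 CPM in others. Macrophages, which the paper also names as needing Irf8, had 5 of 8 genes upregulated and none called lower, with a median log2 fold change of 1.16. These were C1qa, C1qb, C1qc, Mrc1 and Folr2. The last averaged 0.0758 CPM with vehicle and passed the count filter through the oxaliplatin group, so its direction was fixed by it. With each group's mean subtracted, Irf8 correlated with the B cell genes at r = 0.579 over 10 libraries, and at 0.0409 without oxaliplatin mice 3 and 4. Dendritic cell genes gave 0.658 and 0.404, monocyte genes -0.189 and 0.0302, and macrophage genes -0.159 and 0.287. Endothelial genes gave 0.719 and 0.222, so the correlation was not particular to cell types that use Irf8. The part of B cells, dendritic cells, monocytes and macrophages in the Irf8 difference was not tested.

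Cebpb (ENSMUSG00000056501, GRCm38 chr2:167688915-167690418), the C/EBP factor of stress granulopoiesis, lay just under the fold threshold. It measured 34.2, 49.8, 51.6, 52.8 and 50.7 CPM with vehicle and 80.2, 76.3, 53.9, 59.3 and 86.1 CPM with oxaliplatin. The groups did not overlap, as held for 24.9% of the genes tested, but oxaliplatin mouse 3 exceeded the highest vehicle mouse by little. The log2 fold change was 0.57 (standard error 0.15, edgeR adjusted p = 0.00985), or 1.49-fold. With DESeq2 it was 0.61 (adjusted p = 0.000868), past 1.5-fold, and without oxaliplatin mice 3 and 4 it was 0.76 (edgeR adjusted p = 0.000218). Over 19 alternatives it lay between 0.33, with the covariate of Y-linked genes, and 0.76, with adjusted p from 0.000218 to 0.105. Its exon shares 312 bases with Tmem189 on the opposite strand (979 to 1771 counts in marrow), and whether counting used strand is not stated in the sources used here.

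**Figure D2:**
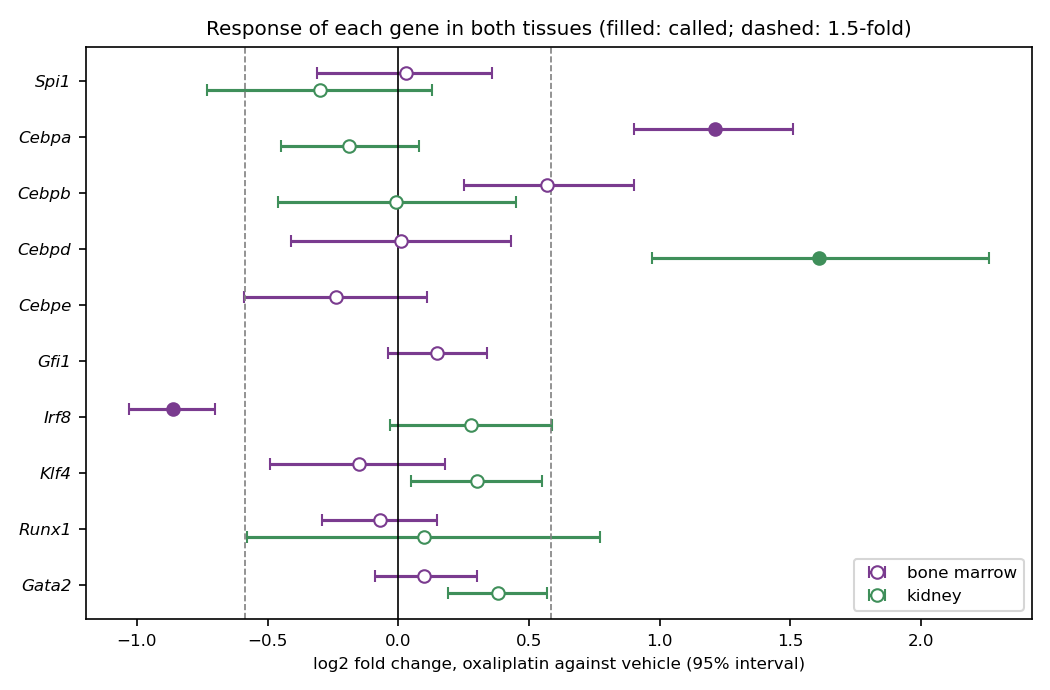
Log2 fold change of each factor, oxaliplatin against vehicle (horizontal axis), with its 95% interval, in bone marrow and kidney; filled points were called and dashed lines mark 1.5-fold. Marrow Cebpa (1.21) and Irf8 (-0.86) and kidney Cebpd (1.61) are the filled points, and Cebpe and Gfi1 have no kidney point because they could not be tested there.

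Spi1, Cebpd and Cebpe had group means close to those of vehicle mice but a wider spread. Spi1 (ENSMUSG00000002111) measured 209, 225, 230, 245 and 258 CPM with vehicle and 281, 256, 162, 191 and 299 CPM with oxaliplatin. Mice 3 and 4 lay below every vehicle mouse, and mice 1 and 5 above them all. Its coefficient of variation was 8.04% with vehicle and 24.7% with oxaliplatin, and its log2 fold change was 0.03 (95% interval -0.31 to 0.36, edgeR adjusted p = 0.92).

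Cebpd (ENSMUSG00000071637) measured 113, 120, 125, 133 and 155 CPM with vehicle and 166, 149, 84.1, 86.8 and 165 CPM with oxaliplatin, a log2 fold change of 0.01 (95% interval -0.41 to 0.43, edgeR adjusted p = 0.978). Cebpe (ENSMUSG00000052435), whose product switches on secondary granule genes, measured 93.6, 111, 110, 118 and 115 CPM with vehicle and 106, 110, 65.1, 67.3 and 116 CPM with oxaliplatin, a log2 fold change of -0.24 (95% interval -0.59 to 0.11, edgeR adjusted p = 0.291). In both genes oxaliplatin mice 3 and 4 again fell below all vehicle mice. Without these mice the log2 fold changes were 0.26 for Spi1 (edgeR adjusted p = 0.0393), 0.31 for Cebpd (0.0252) and 0.02 for Cebpe (0.91), none beyond 1.5-fold. Over all alternatives the adjusted p ran from 0.0393 to 0.995 for Spi1, from 0.0252 to 0.991 for Cebpd and from 0.0164 to 0.91 for Cebpe.

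**Figure D3:**
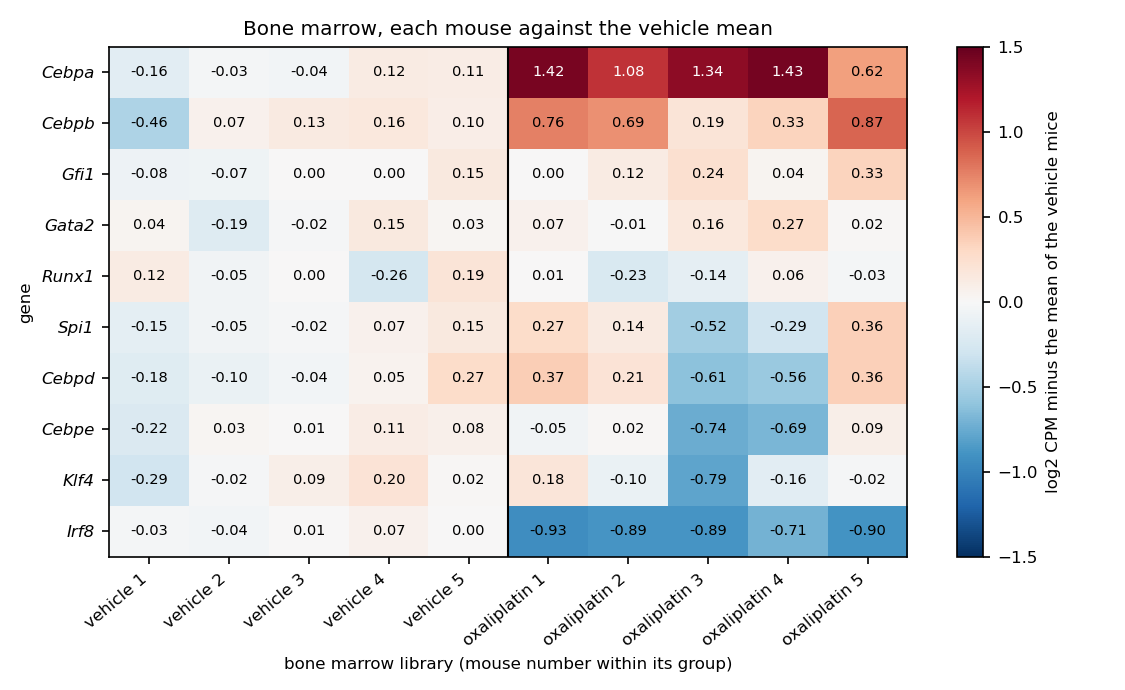
Log2 CPM of each factor (rows) in each marrow library (columns) minus the mean of the 5 vehicle mice, as a colour scale and as printed values. Cebpa is positive (0.62 to 1.43) and Irf8 negative (-0.93 to -0.71) in all 5 oxaliplatin mice, while Spi1, Cebpd and Cebpe are negative (-0.74 to -0.29) in mice 3 and 4 and between -0.05 and 0.37 in mice 1, 2 and 5.

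These factors varied together with the genes of maturing neutrophils, and with other gene lists too. With each group's mean subtracted, Spi1 and Cebpd correlated at r = 0.975 over the 10 libraries (0.923 without oxaliplatin mice 3 and 4), Spi1 and Cebpe at 0.956 (0.747) and Cebpd and Cebpe at 0.958 (0.633). Cebpb also correlated with Cebpe, at 0.889 (0.928). Against the secondary granule genes (Ltf, Camp, Ngp, Lcn2, Cd177 and Mmp8) the values were 0.977 for Spi1, 0.934 for Cebpd and 0.95 for Cebpe, and 0.853, 0.598 and 0.714 without those mice. General leukocyte genes (such as Ptprc and Coro1a) gave 0.98, 0.924 and 0.938, and 0.901, 0.684 and 0.768 without those mice. Glucocorticoid response genes (such as Fkbp5 and Klf9) gave 0.971, 0.944 and 0.921, and 0.869, 0.808 and 0.657 without those mice. The correlation was thus not particular to neutrophil genes. Against the primary granule genes, made earlier in the lineage, Spi1 gave -0.798 with the mice and 0.738 without them, so that sign rested on 2 libraries. The points share their library and its scaling. The summed primary granule genes were 4150 and 3270 CPM in mice 3 and 4 and 2460 to 2590 CPM in the other oxaliplatin mice, the reverse of the secondary granule order.

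**Figure D4:**
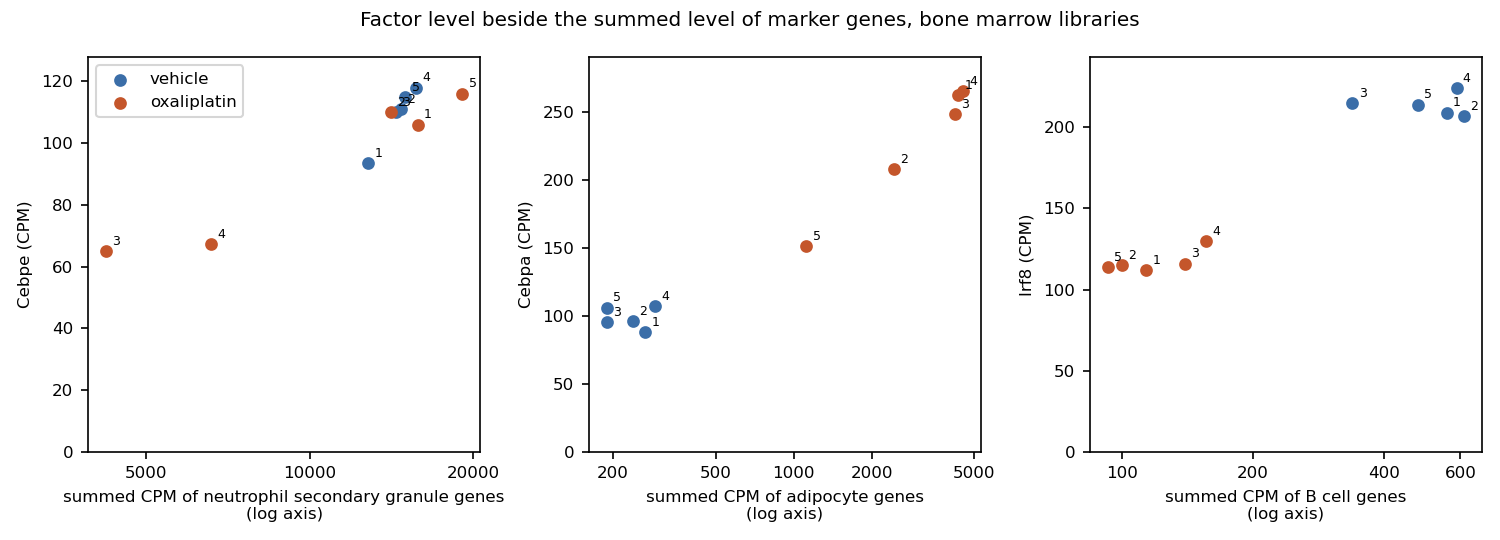
CPM of Cebpe, Cebpa and Irf8 (vertical axes, from 0) against the summed CPM of neutrophil secondary granule, adipocyte and B cell genes (horizontal log axes) in the numbered marrow libraries. Oxaliplatin mice 3 and 4 have the lowest Cebpe (65.1 and 67.3 CPM) and granule sums (4210 and 6590 CPM), Cebpa follows the adipocyte sum over the 5 oxaliplatin mice, and the groups are separate in both Irf8 and the B cell sum.

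Klf4 (ENSMUSG00000003032), a monocyte factor, measured 34.2, 41.4, 44.7, 48.2 and 42.5 CPM with vehicle and 47.4, 39.1, 24.2, 37.6 and 41.3 CPM with oxaliplatin. Mouse 3 was below every vehicle mouse and the rest overlapped. The log2 fold change was -0.15 (edgeR adjusted p = 0.489) and its 95% interval of -0.49 to 0.18 stayed inside 1.5-fold.

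Gfi1, Runx1 and Gata2 did not pass the test and varied less among oxaliplatin mice than Spi1, Cebpd and Cebpe. Gfi1 (ENSMUSG00000029275), a repressor that favours neutrophils over monocytes, ranged from 55.6 to 64.9 CPM with vehicle and from 58.5 to 73.9 CPM with oxaliplatin (log2 fold change 0.15, 95% interval -0.04 to 0.34, edgeR adjusted p = 0.22). Runx1 (ENSMUSG00000022952), needed to form blood stem cells, ranged from 175 to 238 and from 178 to 218 CPM (-0.07, 95% interval -0.29 to 0.15, adjusted p = 0.642). Gata2 (ENSMUSG00000015053), which maintains stem cells and mast cells, ranged from 32.6 to 41.3 and from 37.1 to 45 CPM (0.10, 95% interval -0.09 to 0.30, adjusted p = 0.433). All 3 overlapped between the groups, and their intervals did not reach 1.5-fold in either direction. Markers of the cells that use Gata2 did not move alike: of 8 stem and progenitor genes 4 were upregulated and none was called lower (Hlf at -0.40, adjusted p = 0.0348, and Kit at -0.33, adjusted p = 0.0323, were under the fold threshold), whereas of 11 mast cell, basophil and eosinophil genes 6 were downregulated (Prss34 at -2.11 and Epx at -1.70 on the log2 scale among them). The list pools these cell types, so its calls are not those of mast cells alone. In it, Cpa3 (-0.04, edgeR adjusted p = 0.923) and Fcer1a (-0.44, 0.422) were not called. The mast cell protease genes Tpsb2, Cma1 and Mcpt4 were called higher. They averaged 0.0065, 0.0126 and 0.0242 CPM with vehicle and passed the count filter through the oxaliplatin group, so their direction was fixed by it. Oxaliplatin mice were uneven, with Tpsb2 from 0.757 to 9.1 CPM.

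To compare the factors with each other, CPM were divided by exon length in kilobases. In vehicle marrow Cebpe (88.1) and Spi1 (86.6 CPM per kb) were highest and overlapped each other. Cebpa (37.3), Cebpd (34.5), Cebpb (31.8) and Irf8 (30.3) followed, each overlapping its neighbour in this order. Gfi1 (18.4), Runx1 (17.4) and Klf4 (13.8) came next, and Gata2 (6.92) was below all others without overlap. After oxaliplatin Cebpa (86.1) stood beside Spi1 (88.2) and Cebpe (74.8), and Irf8 (16.7) had moved from the second tier to overlap Gfi1 (20.4) and Runx1 (16.6).

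Differences of log2 CPM within a mouse restate the values above and are not a separate test. Cebpa stood below Spi1 by 1.20 to 1.29 on the log2 CPM scale in the 5 vehicle mice (mean difference, Cebpa minus Spi1, -1.25 ± 0.03). In oxaliplatin mice 1 to 5 that difference was -0.10, -0.30, 0.61, 0.48 and -0.99. Irf8 minus Cebpa went from 1.12 ± 0.09 to -0.92 ± 0.32, and Gfi1 minus Irf8 went from -1.87 ± 0.08 to -0.85 ± 0.18. These CPM were not divided by exon length, so the sign of a difference does not rank the factors. Per kilobase, Irf8 (29.4 to 31.8) already lay below Cebpa (33.4 to 40.4) in vehicle marrow. Gata2 minus Spi1 was -2.64 ± 0.14 and -2.53 ± 0.47, with overlap.

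Genes downstream of and related to the factors were described by the same rule. Of 7 myeloid receptor and surface genes (Csf1r, Csf2ra, Csf2rb, Csf3r, Itgam, Fcgr3 and Il6ra), many of them targets of PU.1 and C/EBP proteins, 2 were upregulated and none was called lower: Fcgr3, an IgG receptor, with a log2 fold change of 0.72 (edgeR adjusted p = 0.00487), and Csf1r, the receptor of macrophage colony-stimulating factor, with 0.60 (adjusted p = 0.0136). The median of the 7 was -0.14, and Csf3r (-0.43), Itgam (-0.40), Csf2ra (-0.16) and Il6ra (-0.14) had values below 0. Of 13 factors of the same families, 5 were downregulated and none was upregulated, with a median of -0.24. They included Spib, the B cell and plasmacytoid relative of Spi1, which went from 106 ± 25.5 to 9.15 ± 1.21 CPM (log2 fold change -3.53, adjusted p = 4.88e-08), Irf4 (-1.74, 8.3e-05) and Spic (-1.06, 0.000221), which acts in red pulp and marrow macrophages, and also Gfi1b and Runx2. Of 14 other blood factors, 3 were upregulated and 3 downregulated (median 0.13). The largest differences were those of Egr2 (2.51, adjusted p = 2.99e-06), Batf3 (1.60, 9.41e-05), needed by conventional dendritic cells, and Lmo2 (-0.95, 0.000223), a partner of erythroid and stem cell factors. Of the 6 secondary granule and 5 mature neutrophil genes none was called either way (the most abundant, Ngp and S100a9, at -0.27, adjusted p = 0.553, and -0.13, adjusted p = 0.76). Oxaliplatin mice 3 and 4 are part of this result. The mature neutrophil genes summed to 3770 and 4680 CPM in them, 10300 to 12600 CPM in the other oxaliplatin mice and 7800 to 9480 CPM with vehicle.

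Among 14649 genes averaging a log2 CPM of 1 or more, those whose marrow level followed Cebpa most closely within the groups were Ffar2 (r = 0.98), a fatty acid receptor of neutrophils and adipocytes, Gpx8 (0.976) and Tmem109 (0.972), each over 10 libraries. Without the 2 libraries farthest from the median of Cebpa the values were 0.921, 0.927 and 0.959. The closest to Irf8 were Ercc1 (0.938), Arhgef5 (0.926) and Tox2 (0.914), which dropped to 0.744, 0.591 and 0.563 on the same rule.

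In kidney, where blood cells are a minor component, Cebpd was the factor that passed the test. The tested factors numbered 8, since Cebpe and Gfi1 had too few counts, and 1 of the 8 was called, beside 11.5% of the 19293 genes tested in kidney (7.68% higher and 3.81% lower). Cebpd (GRCm38 chr16:15887286-15891031, plus strand, a single exon) measured 7.05, 8.95, 11.3, 12.8 and 10.2 CPM with vehicle and 38.6, 16.7, 26.8, 24.8 and 46.2 CPM with oxaliplatin. The groups did not overlap, as held for 20.7% of the genes tested there. The log2 fold change was 1.61 (standard error 0.29, edgeR adjusted p = 0.00275), or 3.05-fold. Its exon shares 562 bases with Spidr on the opposite strand (119 to 380 counts in kidney).

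**Figure D5:**
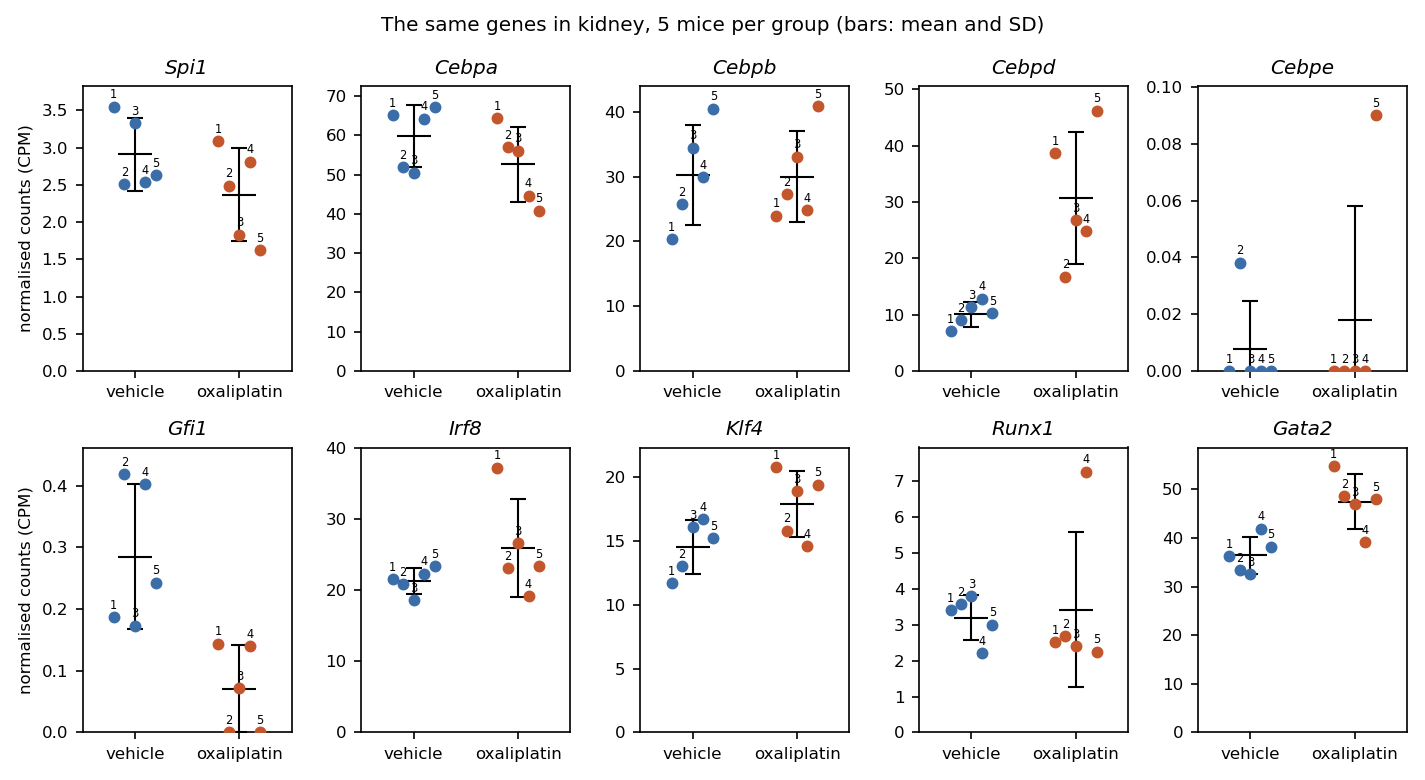
TMM-scaled CPM (vertical axes, each starting at 0) of the 10 factors in the 5 vehicle and 5 oxaliplatin kidney libraries, numbered within their group, with bars for the mean and SD. Cebpd lay between 16.7 and 46.2 CPM after oxaliplatin against 7.05 to 12.8 CPM with vehicle, and Cebpe and Gfi1 were near 0.

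Acute phase genes, several of which C/EBPδ activates, were higher in the same kidneys: 6 of 7 tested were upregulated and none was called lower, with a median log2 fold change of 1.26 against 0.0249 over all genes tested. Serpina3n (2.43, edgeR adjusted p = 0.00033), Lcn2 (2.06, 0.000131) and Osmr (1.31, 3.8e-05) differed most. Of these, Serpina3n averaged 0.252 CPM with vehicle and passed the count filter through the oxaliplatin group, so its direction was fixed by it. Neutrophil genes were nearly absent from kidney (summed secondary granule genes of 1.49 to 2.29 CPM with vehicle and 3.78 to 9.62 CPM with oxaliplatin, largely Lcn2), and Ctsg and Ms4a3 were at 0 in every kidney library. In marrow 4 of 6 tested acute phase genes were upregulated, while Cebpd had a log2 fold change of 0.01 there.

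The remaining factors did not pass in kidney. Gata2 was nearest, at 36.2, 33.3, 32.6, 41.9 and 38.2 CPM with vehicle and 54.7, 48.6, 47, 39.1 and 48 CPM with oxaliplatin, with mouse 4 alone inside the vehicle range. Its log2 fold change was 0.38 (edgeR adjusted p = 0.00408), or 1.30-fold, under the fold threshold; the adjusted p alone was passed by 29.4% of the genes tested in kidney. Endothelial genes, whose cells express Gata2, were summed at 333 to 356 CPM with vehicle and 409 to 663 CPM with oxaliplatin, with 3 of 7 upregulated, and their part in the Gata2 values was not tested.

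Klf4 (0.30, adjusted p = 0.0629), Irf8 (0.28, 0.169), Spi1 (-0.30, 0.285), Cebpa (-0.19, 0.279), Runx1 (0.10, 0.846) and Cebpb (-0.01, 0.984) had overlapping groups in kidney. Spi1 and Runx1 were measured there on 51 to 95 and 55 to 207 counts. Gfi1 had 5, 11, 4, 10 and 6 counts with vehicle and 4, 0, 2, 4 and 0 with oxaliplatin, near the floor of 3 counts, and Cebpe had at most 3 counts in any kidney library.

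The tissues were compared in a fit over all 20 libraries, in which the difference between the marrow and kidney responses was called for 5 of the 10 factors, beside 23.7% of 24321 genes. Gfi1 and Cebpe entered this fit through their marrow counts, and of the 8 factors tested in both tissues 4 were called. The marrow response exceeded the kidney response for Cebpa by 1.45 on the log2 scale (edgeR adjusted p = 1.45e-05), and was below it for Cebpd by 1.55 (0.000945) and for Irf8 by 1.08 (5.19e-05). For Gfi1 the difference of 2.22 (adjusted p = 0.00156) rested on the 0 to 11 counts per kidney library, too few for a test in kidney alone, and is not read as a difference in response. For Cebpb it was 0.63 with an adjusted p of 0.05 after rounding, just inside the threshold, and it was lost under 20 of 29 alternatives (adjusted p from 0.0147 to 0.201). Cebpe (-1.25, 0.548), Spi1 (0.38, 0.245), Klf4 (-0.40, 0.125), Gata2 (-0.22, 0.254) and Runx1 (-0.11, 0.846) did not pass.

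Between vehicle marrow and vehicle kidney, 7 of the 10 factors were called, all higher in marrow, beside 72.9% of 24321 genes called either way (38.3% higher and 34.6% lower in marrow). Spi1 exceeded its kidney level by 5.89 on the log2 scale (edgeR adjusted p = 2.07e-18), Runx1 by 5.61, Cebpd by 3.26, Irf8 by 2.90 and Klf4 by 1.11. Cebpe and Gfi1 were also called, against kidney counts of 0 to 1 and 4 to 11 per vehicle library; they passed the filter through marrow, where they are high, so their direction was fixed by it, and 5 of the other 8 factors were called. Cebpa (0.29, adjusted p = 0.0753), Cebpb (0.23, 0.207) and Gata2 (-0.39, 0.00106) were not called. With library size alone in place of TMM, Cebpa (0.71, edgeR adjusted p = 6.6e-05) and Cebpb (0.66, 0.00149) passed both thresholds and Gata2 was at 0.03. Per kilobase Cebpa (22.7 CPM) and Cebpb (20.1 CPM) were the highest of the 10 in vehicle kidney, overlapping each other. Kidney and marrow RNA were extracted by different methods, which cannot be told apart from tissue here.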

How the data were processed

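RNA-seq was done on bone marrow and kidney of vehicle- and oxaliplatin-treated mice, 5 libraries each. The authors deposited raw gene counts. According to the methods, reads were aligned with STAR against Ensembl release 101 and uniquely aligned, unambiguous reads were counted in Partek Flow; the submitters' processing notes also name featureCounts and Salmon. Library chemistry is described as SMARTer in the methods and as ribosomal RNA removal with random hexamers in the labels.

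Repeated lines were merged. Each tissue was fitted on its own with edgeR 4.0.16 in R 4.3.3, using filterByExpr with a minimum count of 10, TMM scaling and robust quasi-likelihood fits; tests were two-sided and Benjamini-Hochberg adjusted over all genes tested. Calls needed an adjusted p below 0.05 as well as more than 1.5-fold change. A tissue by treatment term was tested over 20 libraries. Log2 CPM used a prior count of 2. A floor of 3 counts corresponds to 0.0668 to 0.0975 CPM in marrow and 0.09 to 0.13 CPM in kidney and covers counting error only. No library was a repeat of another (chi-square per degree of freedom at least 6.83). Steps were tested on simulated data; the tissue by treatment term missed more of the smaller known changes than the fits within a tissue, and the pass mark for that step was lowered after it was first not met, so an interaction that was not called may be a missed one. Alternatives included DESeq2 1.42.0. Positions and exon lengths came from GENCODE M21.

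The factors and gene lists were chosen with earlier results of these data known. Named from each list were up to 3 called genes with the largest change or, with none called, the most abundant, plus further genes, named after their values were seen, where a count was 5 or fewer; 1 gene that this rule selects is not reported here. Also named were the 3 genes nearest to each factor called in marrow. Libraries are taken as separate mice from the labels. Plots used matplotlib 3.10.9 under Python 3.11.15.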

Additional observations from a re-analysis of the deposited data

Results flagged for a closer look

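In marrow, vehicle mouse 1 had Cebpb at 34.2 CPM, apart from 49.8 to 52.8 CPM in the other vehicle mice. Oxaliplatin mouse 4 had Irf8 at 130 CPM, apart from 112 to 116 CPM in the others of its group and below every vehicle mouse. In kidney, oxaliplatin mouse 4 had Runx1 at 7.26 CPM, apart from 2.25 to 2.69 CPM. These are 3 of 38 groups of 5 values examined by Dixon's test, which flags about 1 in 20 by chance.

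The responses of marrow and kidney differed by edgeR's interaction test for Cebpa (1.45, marrow minus kidney on the log2 scale), Cebpb (0.63), Cebpd (-1.55), Gfi1 (2.22) and Irf8 (-1.08), with adjusted p of 1.45e-05, 0.05, 0.000945, 0.00156 and 5.19e-05. Gfi1 had 0 to 11 counts per kidney library and could not be tested in kidney alone, so its value is not read as a difference in response.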

How the results depend on the processing

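The calls of Cebpa and Irf8 in marrow and of Cebpd in kidney held under every alternative in which each log2 fold change was refitted: 1.07 to 1.46 for Cebpa, -0.91 to -0.71 for Irf8 and 1.42 to 1.76 for Cebpd. The test against 1.5-fold is not among these alternatives. At a fold change beyond 2, 1 factor was called in marrow (Cebpa). On the adjusted p alone, 2 were called in kidney (Cebpd and Gata2). With at least 10 counts in every library, which removes Cebpe and Gfi1, the interaction calls numbered 3. Leaving out each replicate in turn gave 2 to 3 calls in marrow, 1 in kidney, 4 to 5 for the interaction and 7 for vehicle tissue. The marrow number was 3, with Cebpb, under DESeq2, size factors, library size, hemoglobin genes left out and, chosen after seeing the data, oxaliplatin mice 3 and 4 left out.

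Signs turned only for values not called in the comparison concerned, and the cause was not tested. With a replicate block the marrow values were -0.01 for Spi1 and -0.05 for Cebpd, that of kidney Runx1 was -0.05 and its interaction was 0. The block changed no call of a factor, and same-numbered libraries did not deviate together (r from -0.154 to 0.228), so the numbers were not taken as pairs; in 4 of 20 checks a library correlated best with its own number. With a covariate of Y-linked genes marrow Spi1 was -0.23, marrow Cebpd -0.30, kidney Cebpb 0.01, kidney Runx1 -0.03 and the Runx1 interaction 0.20. With library size alone marrow Runx1 was 0.07, kidney Cebpb 0.13 and vehicle Gata2, marrow minus kidney, 0.03. With at least 10 counts in every library kidney Cebpb was 0.02. Without oxaliplatin mice 3 and 4 marrow Cebpe was 0.02 and Klf4 0.01. Leaving out each replicate gave -0.04 to 0.14 for marrow Spi1, -0.09 to 0.13 for marrow Cebpd, -0.14 to 0.12 for kidney Cebpb, -0.37 to 0.23 for kidney Runx1 (-0.37 without oxaliplatin mouse 4), -0.23 to 0.36 for the Runx1 interaction and -3.02 to 1.56 for that of Cebpe, which rests on single kidney counts.

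Over all genes, a test against 1.5-fold called 2730 in marrow and 454 in kidney, in place of 5221 and 2216. A fold beyond 2 called 3231 and 941 there and 3529 interactions in place of 5759. On the adjusted p alone 5679 kidney genes were called, and with at least 10 counts in every library 10089 in place of 17733 between vehicle tissues. Library size alone moved the median log2 fold change to 0.11 in marrow and 0.16 in kidney, and the share of calls that were higher from 49.6% to 63.4% and from 66.8% to 82.7%; Cebpa, Irf8 and kidney Cebpd were called under it too. Depth limited Cebpe and Gfi1 in kidney.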
